A study of Sus scrofa with 30 samples.

Results

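The plasma miRNAs described here are ssc-miR-122, ssc-miR-192, ssc-miR-215 and the ssc-miR-194 family, all known from liver and gut. They were the rows of the deposited count table named exactly ssc-miR-122, ssc-miR-192, ssc-miR-194 or ssc-miR-215 before any arm or copy letter, and 6 of the 411 ssc-miRNAs met this rule: ssc-miR-122, ssc-miR-192, ssc-miR-215, ssc-miR-194a, ssc-miR-194b-5p and ssc-miR-194b-3p. The study followed 3 male Göttingen minipigs, 4 months old, through a 60Co total body irradiation (TBI) of 2.2 Gy. Plasma was drawn under isoflurane anaesthesia 7 days (C7) and 1 day (C1) before TBI, 6 h after it (0d), at 1d and 3d, then at 7d, 10d and 14d, and finally at 17d and 20d. All 3 animals formed the control arm of a drug study: they received 5% dextrose under the skin on days 1 and 8, were given oral antibiotics when neutrophils were low, and did not survive. There was no unirradiated group over the same days, so the C7 and C1 libraries of the same animals, pooled as pre-TBI, are the baseline.

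A count minimum of 1000 left 24 of the 30 libraries, with totals of 24341 to 550316 counts and a median of 240612. The other 6 libraries, all of minipig 3 from 3d on, held 0 to 17 counts in all, of which 2 fell on these miRNAs. Every value from 3d on therefore comes from minipigs 1 and 2, and libraries were 6 at pre-TBI, 3 each at 0d and 1d, and 2 at each later time point. Totals were lowest at 17d, with 29159 to 63441 counts, and at 10d, with 35762 to 59291. Libraries are repeated draws from the same animals, so p-values measure the spread between draws of 2 or 3 pigs.

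miRNAs are short RNAs that guide Argonaute proteins to messenger RNAs through a seed near their 5′ end. miR-122 is the dominant miRNA of hepatocytes, where it supports cholesterol metabolism, and its release into plasma is a standard sign of liver injury. miR-192 and miR-215 carry the same seed, are enriched in intestinal epithelium, liver and kidney, and are known as p53-induced miRNAs that restrain the cell cycle. miR-194 is made from the same primary transcripts, 1 copy beside miR-192 and the other beside miR-215. In the RefSeq gene table (assembly Sscrofa11.1, used here for names and neighbours only) the 6 rows matched 5 hairpins on 3 chromosomes. MIR192 and MIR194A had 0 genes between them, as had MIR215 and MIR194B, and the MIR192 and MIR215 hairpins lay on different chromosomes. Plasma holds RNA released from every tissue, so a lower level from fewer cells of a type and one from less RNA per cell cannot be told apart.

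Levels differed widely among the 6 rows. Ranked by mean log2 CPM (counts scaled to a common library size, with edgeR's TMM factors) over the 24 libraries, ssc-miR-192 stood 41st of the 411 ssc-miRNAs and ssc-miR-215 98th. ssc-miR-122 ranked 183rd, and ssc-miR-194b-5p, ssc-miR-194b-3p and ssc-miR-194a ranked 266th, 282nd and 327th. Together the 6 rows took 0.302% to 1.65% of a library's counts, with a median of 0.671%. ssc-miR-192 was counted 35 to 5790 times per library, ssc-miR-215 20 to 2314 times and ssc-miR-122 14 to 424 times, while the ssc-miR-194 rows had 3 to 293 counts. Such low counts are imprecise: the 3 counts of ssc-miR-194b-5p at 17d in minipig 1 were 0.0103% of the library, with an exact binomial 95% interval of 0.00212% to 0.0301%. Molecules carried no identifiers, so PCR duplicates remain in the counts and the interval reflects counting error alone. ssc-miR-194a and ssc-miR-194b-5p are near-identical family members, as are ssc-miR-192 and ssc-miR-215, and the division of reads within each pair is uncertain.

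The results centre on ssc-miR-192, the most abundant row. Before TBI it measured 3145, 3010 and 2932 CPM at C7 in minipigs 1, 2 and 3, and 3481, 2446 and 4261 CPM at C1. At 0d the values were 2101, 2697 and 3534 CPM, and at 1d they were 4963, 3488 and 6741 CPM. At 0d they overlapped the baseline. At 1d minipigs 1 and 3 lay above all 6 pre-TBI libraries, and minipig 2 lay inside their range of 2446 to 4261 CPM. Each animal stood above both of its own pre-TBI draws at 1d, which was not counted over all ssc-miRNAs.

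Minipigs 1 and 2 then gave 7071 and 7071 CPM at 3d, 2772 and 4722 at 7d, and 3113 and 1773 at 10d. They gave 7334 and 7177 CPM at 14d, 1662 and 1838 at 17d, and 9954 and 8028 at 20d. The series thus had 3 high points, at 3d, 14d and 20d, where both animals lay above all 6 pre-TBI libraries, and 1 low point, at 17d, where both lay below all of them. Lying clear of all 6 pre-TBI libraries, above or below, was not rare with 2 libraries per time point. Of the 411 ssc-miRNAs, 11.4% did so at 3d and 10.9% at 17d. The shares for 14d and 20d were 13.4% and 9.25%. Ordered by mean log2 CPM the time points ran 20d, 14d and 3d at the top, then 1d, 7d, C1, C7 and 0d, with 10d and 17d last. In that order 20d, 14d and 3d each stood clear of the next time point, while from 1d downward every neighbouring pair of time points overlapped.

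ssc-miR-215, the partner with the same seed, followed a similar course at a lower level. Its pre-TBI values were 983, 1130 and 984 CPM at C7 and 1252, 726 and 1632 CPM at C1. At 0d it measured 824, 1201 and 1162 CPM, and at 1d 2116, 1430 and 2240 CPM. The 0d values lay within the baseline range, and 2 of the 3 at 1d lay above it.

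From 3d on, ssc-miR-215 measured 2940 and 2764 CPM at 3d, 1291 and 1965 at 7d, and 1854 and 817 at 10d. It measured 2751 and 3971 CPM at 14d, 1235 and 895 at 17d, and 2734 and 3208 at 20d. At 3d, 14d and 20d both animals again lay above all 6 pre-TBI libraries, but at 17d, unlike ssc-miR-192, both lay inside the baseline range. The order was 14d, 20d and 3d, followed by 1d, 7d and 10d, then C1, 17d, 0d and C7, in which only 3d was clear of the time point that followed it.

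**Figure D1:**
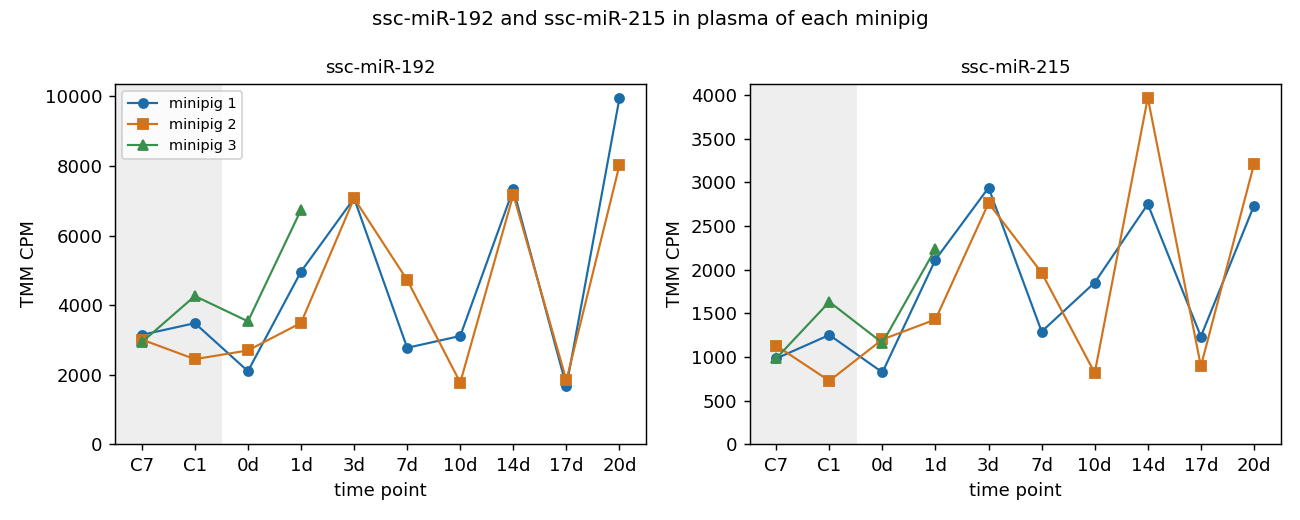
TMM-scaled CPM (vertical axis, linear) of ssc-miR-192 (left) and ssc-miR-215 (right) at the 10 time points (horizontal axis, evenly spaced, pre-TBI shaded), 1 line per minipig. Both rows peak at 3d, 14d and 20d in minipigs 1 and 2, where ssc-miR-192 reaches 7071 to 9954 CPM against 2446 to 4261 CPM before TBI.

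Single time points were compared with pre-TBI in a joint edgeR quasi-likelihood model of 9 groups. The p-values were adjusted by Benjamini-Hochberg over all 411, and an adjusted p under 0.05 was taken as a call. At 20d both rows rose: ssc-miR-192 by 1.48 ± 0.30 on the log2 scale (SE, adjusted p = 0.0302), a 2.80-fold higher level, and ssc-miR-215 by 1.41 ± 0.32 (adjusted p = 0.0431), 2.65-fold. These were 2 of the 3 ssc-miRNAs called at 20d, where 0.73% of all were called. The call depended on the grouping of the other libraries: the study's LR phase holds the same 20d libraries, and in a fit of 5 phases the log2 fold changes were again 1.48 and 1.41, but with SEs of 0.447 and 0.442 and an edgeR adjusted p of 0.337 for both. At 14d ssc-miR-215 rose by 1.58 ± 0.32 (edgeR adjusted p = 0.0362), 3.00-fold, and was the only ssc-miRNA called (0.243%). ssc-miR-192 stood 1.17 ± 0.31 above pre-TBI at 14d and missed the threshold (edgeR adjusted p = 0.238).

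At 3d ssc-miR-215 rose by 1.35 ± 0.32 (edgeR adjusted p = 0.0406), 2.54-fold, among 5 calls in all (1.22%), and ssc-miR-192 stood at 1.14 ± 0.31 (adjusted p = 0.0666). With the minipig as a block, ssc-miR-192 passed at 3d too (edgeR adjusted p = 0.0325), where 6 of the 411 were called higher and 0 lower. No row of the 6 was called at 17d, where 4.87% of all ssc-miRNAs were. ssc-miR-192 at 17d had a log2 fold change of -0.87 ± 0.35 (edgeR adjusted p = 0.158) and ssc-miR-215 one of -0.09 ± 0.36 (adjusted p = 0.928). At 0d, 1d, 7d and 10d edgeR called 0 ssc-miRNAs of any kind (0.0%). At these times DESeq2 called 1 row of the 6, ssc-miR-122 at 1d, where it called 7 of the 411 higher and 18 lower.

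These calls depended on the setting more than their direction did. Over 15 alternative settings ssc-miR-215 kept its direction and an unadjusted p under 0.05 in 15 at each of 3d, 14d and 20d, and its log2 fold change ranged from 1.24 to 1.63, from 1.26 to 1.74 and from 1.01 to 1.55. The adjusted p stayed under 0.05 in 8, 7 and 6 of the 15, and for ssc-miR-192 at 20d in 6 (log2 fold change 1.27 to 1.63). Leaving out the C7 library of minipig 1, the smallest of all, ended the calls at 20d (adjusted p = 0.118 for both) and at 14d (0.0613), and leaving out any 1 minipig ended those at 3d, 14d and 20d. Without minipig 1 or 2, each time point from 3d on holds 1 library, whose spread is assumed to be that of the other groups. Over the alternatives the adjusted p of ssc-miR-215 ranged from 0.000929 to 0.509 at 3d, from 0.000237 to 0.997 at 14d and from 0.00102 to 0.938 at 20d, and that of ssc-miR-192 at 20d from 0.000193 to 0.685.

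At an unadjusted p under 0.05, the threshold the study used, the 6 rows gave 1 call at 0d, where 8.52% of all ssc-miRNAs were called, and 3 calls at 1d (12.2%). There were 2 calls at 3d (8.52%), and 0 at both 7d (8.27%) and 10d (7.3%). Later counts were 3 at 14d (9.0%), 1 at 17d (23.8%) and 3 at 20d (7.06%). The 3 rows at 1d, 14d and 20d were ssc-miR-192 and ssc-miR-215, both higher, and ssc-miR-122, lower, so the ssc-miR-194 rows contributed none of these counts. Counted by libraries instead, 4 rows lay wholly outside the range of the 6 pre-TBI libraries at 14d and 4 at 20d, where 13.4% and 9.25% of all ssc-miRNAs did. At both times these were ssc-miR-192, ssc-miR-215 and ssc-miR-194b-5p above and ssc-miR-122 below.

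**Figure D2:**
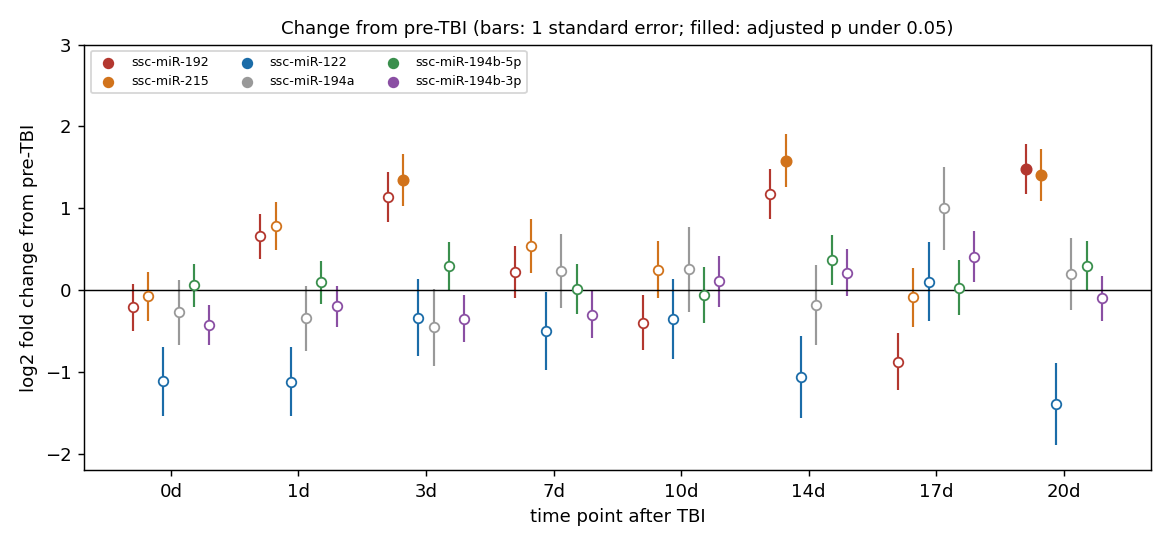
Log2 fold change from pre-TBI (vertical axis) of the 6 rows at the 8 time points after TBI (horizontal axis), from edgeR with bars of 1 SE. Filled points have an adjusted p under 0.05: ssc-miR-215 at 3d (1.35), 14d (1.58) and 20d (1.41), and ssc-miR-192 at 20d (1.48).

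The swing between 14d, 17d and 20d was tested directly in the same fit, a comparison chosen after the levels had been seen. From 14d to 17d ssc-miR-192 fell by 2.05 ± 0.42 on the log2 scale (edgeR adjusted p = 0.0133) and ssc-miR-215 fell by 1.67 ± 0.44 (adjusted p = 0.0262), in a step where 7.54% of all ssc-miRNAs were called. From 17d to 20d ssc-miR-192 rose by 2.36 ± 0.42 (edgeR adjusted p = 0.00926), where 1.46% were called, and ssc-miR-215 stood 1.49 ± 0.44 higher (adjusted p = 0.0632), a difference that passed with the minipig as a block (0.0376). Each of the 5 earlier steps, from 0d to 14d, gave 0 calls in edgeR (0.0%), although ssc-miR-192 was 1.57 ± 0.41 higher at 14d than at 10d (adjusted p = 0.269). With minipig 1 or 2 left out, these steps compare 1 library with 1, and the spread comes from the other groups. Without minipig 1 neither of these last steps was called for either miRNA (edgeR adjusted p of 0.114 to 0.236), without minipig 2 the fall of ssc-miR-215 was not (0.104), and without minipig 3, absent at these times, the 14d to 17d steps stood at 0.0516. Depth moved with these steps: the totals were 82536 to 103083 counts at 14d, 29159 to 63441 at 17d and 401408 to 550316 at 20d. With every library thinned to the smallest total, ssc-miR-192 fell by 2.06 (edgeR adjusted p = 0.0197) and then rose by 2.32 (adjusted p = 0.00755). ssc-miR-215 fell by 1.49 without a call (edgeR adjusted p = 0.0850). Against pre-TBI the thinned counts gave 0 adjusted calls of any ssc-miRNA at 14d and at 20d, so the calls of these rows there were lost.

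The courses of ssc-miR-192 in minipigs 1 and 2 were similar. Over the 10 time points its log2 CPM in minipig 1 correlated with that in minipig 2 at r = 0.843, the highest value among the 411 ssc-miRNAs, whose median was 0.150. ssc-miR-215 gave r = 0.700, rank 18, and ssc-miR-122 0.033. ssc-miR-194b-5p, ssc-miR-194b-3p and ssc-miR-194a gave -0.023, -0.144 and -0.408. With scaling by library size alone ssc-miR-192 again ranked 1st (r = 0.910) and ssc-miR-215 5th (0.814). These values describe 10 draws in each of 2 animals that were sampled on the same days. Against its own pre-TBI mean, ssc-miR-192 stood 1.59 and 1.56 higher (log2) at 20d in minipigs 1 and 2, 1.15 and 1.40 higher at 14d, 1.09 and 1.38 higher at 3d, and 0.99 and 0.56 lower at 17d.

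ssc-miR-192 and ssc-miR-215 moved together across libraries as well. Over the 24 libraries their log2 CPM correlated at r = 0.905 (Spearman 0.875), at 0.894 without the 2 libraries farthest from the median of ssc-miR-192, and at 0.868 and 0.961 within minipigs 1 and 2. The libraries share animals and scaling factors, so this is a description. The division of reads between these near-identical rows is uncertain, and its part in r and in their ratio was not tested. The counts of ssc-miR-192 per count of ssc-miR-215, a ratio that no library scaling can change, had a median of 2.52 and ran from 1.34 to 3.64. Before TBI the ratio was 2.61 to 3.36. It ranged from 2.14 to 3.04 over 0d to 7d, which the study calls Early, and from 1.68 to 2.66 over 10d and 14d, its Mid phase. The Late phase, which is 17d, held 1.34 and 2.04, and the phase it labels LR, which is 20d, held 2.50 and 3.64. Below the pre-TBI minimum lay 8 of the 10 Early libraries, 3 of the 4 Mid, 2 of the 2 Late and 1 of the 2 LR libraries.

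Time labels were exchanged within each minipig in two-sided exact permutation tests, which gave a difference in the log2 ratio of -0.22 at Early (p = 0.0230, adjusted over 24 ratio tests 0.184). It was -0.54 at Mid (exact permutation p = 0.0556, the smallest this design allows), -0.85 at Late (0.111, also the smallest) and 0.02 at LR (1.00). None of the 24 ratio tests passed an adjusted p of 0.05. The smallest adjusted value, 0.107, was shared by ssc-miR-215 over ssc-miR-194b-3p at Early, 0.95 higher than before TBI on the log2 scale, and by ssc-miR-194b-3p over ssc-miR-194b-5p, the opposite arm of its hairpin, 0.47 lower.

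**Figure D3:**
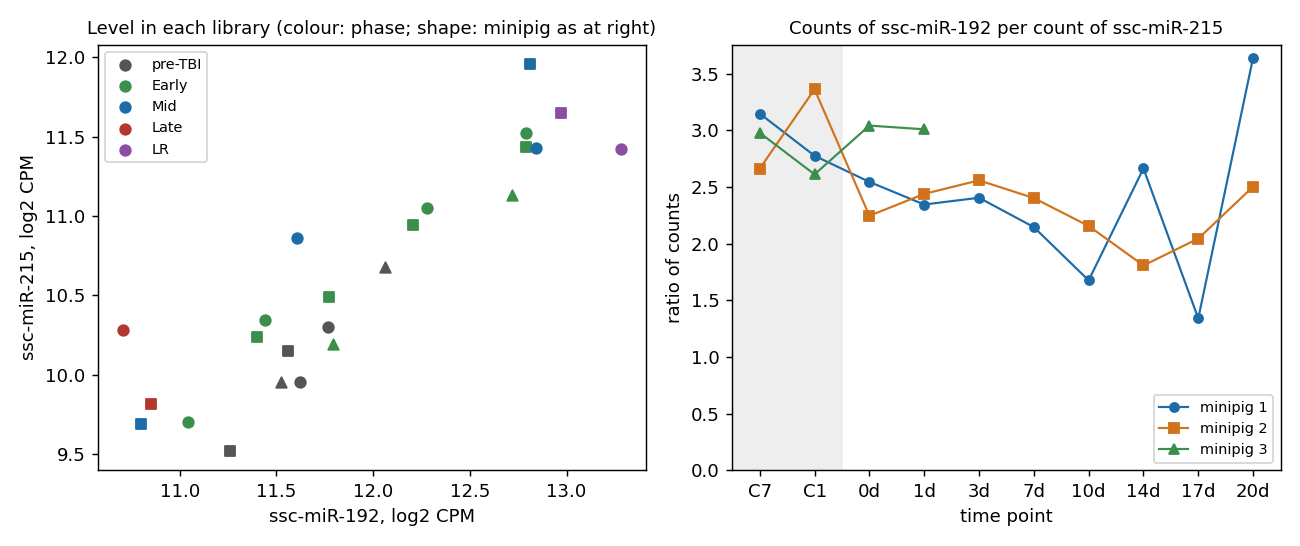
Left, log2 CPM of ssc-miR-192 (horizontal) against ssc-miR-215 (vertical) in each of the 24 libraries, coloured by phase with 1 symbol per minipig (r = 0.905). Right, the ratio of their counts by time point in each minipig: it lies at 2.61 to 3.36 before TBI and at 1.34 to 2.04 at 17d.

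ssc-miR-122, the hepatocyte miRNA, took another path. Its pre-TBI values were 1130, 953 and 607 CPM at C7 and 743, 1318 and 884.8 CPM at C1. At 0d it measured 371, 511 and 413 CPM and at 1d 536, 399 and 358 CPM. All 6 of these libraries lay below all 6 pre-TBI libraries, at each time in 3 of 3 animals, where 6.08% and 6.57% of all ssc-miRNAs were clear of the baseline.

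Later values of ssc-miR-122 were 738 and 741 CPM at 3d, 722 and 601 at 7d, and 396 and 501 at 14d. At 20d both animals were low again, with 338 and 373 CPM. At 10d and 17d the animals parted: minipig 1 gave 1141 and 1757 CPM, its highest value of the series, and minipig 2 gave 327 and 330 CPM. Ordered by mean log2 CPM the time points ran C1 and C7 first, then 17d, 3d and 7d, then 10d and 14d, with 0d, 1d and 20d last, and among neighbours only 3d and 7d were clear of each other.

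No change of ssc-miR-122 passed the adjusted test. Its log2 fold change was -1.11 ± 0.42 at 0d (edgeR adjusted p = 0.468), -1.12 ± 0.42 at 1d (adjusted p = 0.236), -1.06 ± 0.50 at 14d (0.536) and -1.39 ± 0.50 at 20d (0.448), which was 2.62-fold lower. The unadjusted p at these times lay between 0.0122 and 0.0482 in edgeR. DESeq2 called it at 1d (adjusted p = 0.0439), where it called 7 of the 411 ssc-miRNAs higher and 18 lower. It did so too at 20d (DESeq2 adjusted p = 0.0481), where 5 were called higher and 1 lower. At 17d the fitted value of 0.10 ± 0.48 joined opposite animals, 0.93 above and 1.74 below their own pre-TBI means, and it turned negative in 10 of 15 alternatives. Counts there were 37 and 21.

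**Figure D4:**
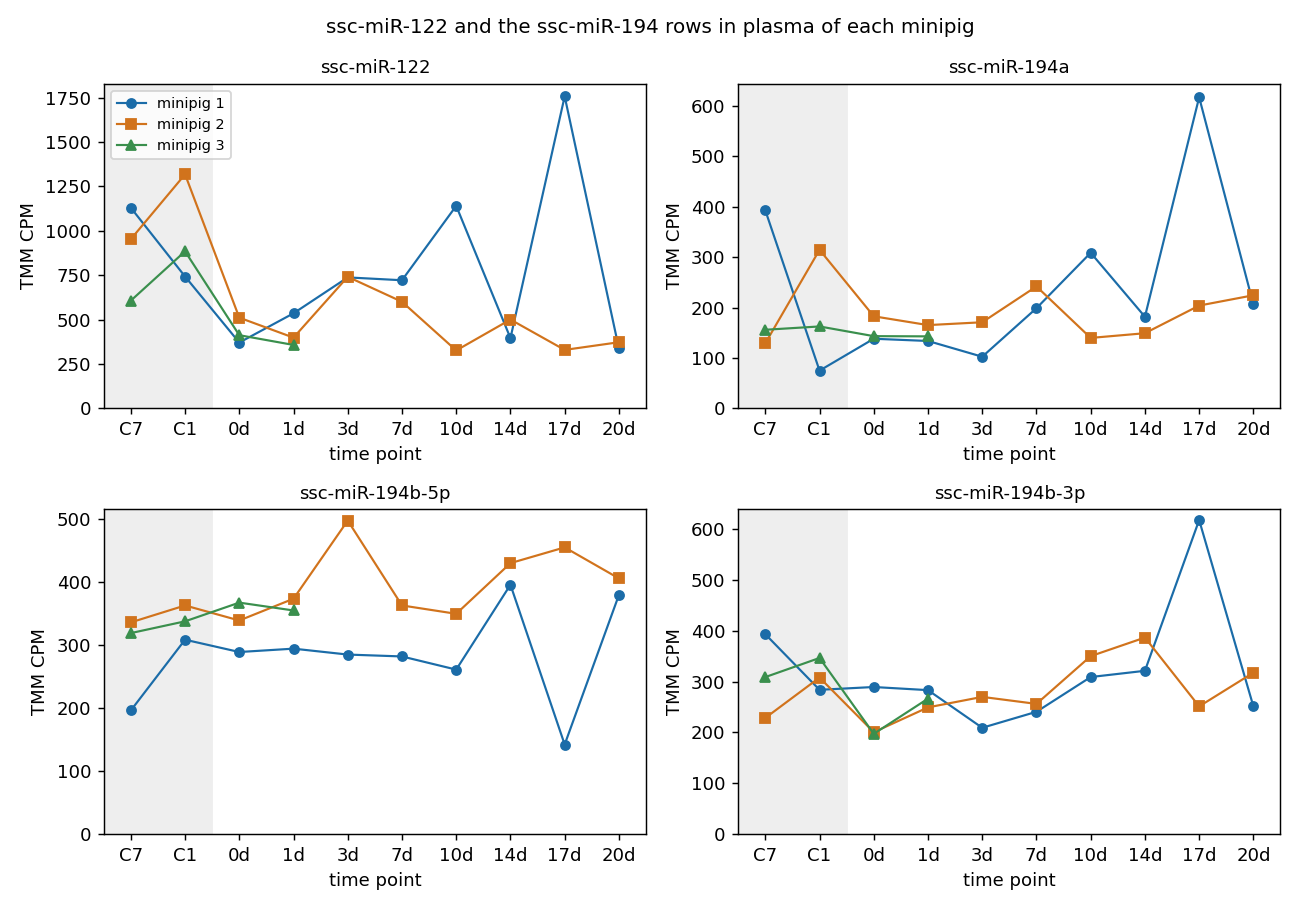
TMM-scaled CPM (vertical axis, linear, a different range in each panel) of ssc-miR-122 and the 3 ssc-miR-194 rows at the 10 time points (horizontal axis, pre-TBI shaded), 1 line per minipig. ssc-miR-122 lies at 358 to 536 CPM at 0d and 1d against 607 to 1318 CPM before TBI, and minipig 1 has its highest ssc-miR-122, ssc-miR-194a and ssc-miR-194b-3p values at 17d.

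The ssc-miR-194 rows, made from the same transcripts as ssc-miR-192 and ssc-miR-215, gave no call at 3d, 14d or 20d. ssc-miR-194a ran from 75.1 to 617 CPM, ssc-miR-194b-5p from 142 to 498 and ssc-miR-194b-3p from 197 to 617, and with the settings used throughout none passed an unadjusted p of 0.05 at any phase or time point in edgeR. Other settings gave some: over the 15 alternatives ssc-miR-194b-3p passed unadjusted in 4 at Early and in 4 at 0d, lower each time. Without the 17d library of minipig 2, the log2 fold change of ssc-miR-194a at 17d was 1.72, from the 1 remaining library. At 20d, where ssc-miR-192 and ssc-miR-215 rose, the log2 fold changes were 0.20 ± 0.44 for ssc-miR-194a, 0.30 ± 0.30 for ssc-miR-194b-5p and -0.10 ± 0.28 for ssc-miR-194b-3p. The 5′ arm ssc-miR-194b-5p measured 380 and 406 CPM at 20d and 396 and 430 at 14d, above the 197 to 363 CPM of pre-TBI. The 3′ arm ssc-miR-194b-3p measured 251 and 317 CPM at 20d, inside the pre-TBI range of 229 to 393. Across the 24 libraries ssc-miR-192 correlated with ssc-miR-194a, its neighbour on the chromosome, at r = -0.274 (Spearman -0.125), and ssc-miR-215 with ssc-miR-194b-5p at 0.311 (0.323). Within minipigs 1 and 2 the values were -0.424 and 0.015 for the first pair, and 0.545 and 0.513 for the second. With ssc-miR-194b-3p, ssc-miR-215 gave -0.028 (-0.424 and 0.326 within minipigs 1 and 2). ssc-miR-192 correlated with ssc-miR-194b-5p at 0.442 (0.745 and 0.465). By mean log2 CPM ssc-miR-194b-5p was highest at 14d, 20d and 3d, the order of ssc-miR-215. In every time point order of the 3 rows each neighbouring pair overlapped.

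Counts behind these rows are low: at 17d in minipig 1 the values of 617 CPM for ssc-miR-194a and ssc-miR-194b-3p rest on 13 counts each. Across libraries, log2 CPM correlated with the log2 library total at r = -0.462 for ssc-miR-194a, 0.487 for ssc-miR-194b-5p and -0.630 for ssc-miR-194b-3p. The values were 0.437 for ssc-miR-192, 0.237 for ssc-miR-215 and -0.329 for ssc-miR-122. The part of depth in these results was not tested beyond the thinned counts.

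When phases were compared with pre-TBI, no row was called. Early and Mid join several time points, while Late and LR are the 17d and 20d libraries alone, compared with the same baseline. By edgeR's adjusted p, 0 of the 6 rows passed at Early or Mid (0.0% of all ssc-miRNAs called in each), and 0 at Late (4.38%) or LR (0.0%). DESeq2 also gave 0 of the 6 in each, while over all 411 it called 4 higher and 29 lower at Early. At Late it called 20 higher and 7 lower. At an unadjusted p under 0.05 edgeR called 2 rows at Early (18.7%) and 1 at Mid (5.35%). It called 0 at Late (22.6%) but 3 in the LR libraries (5.6%). At Early these were ssc-miR-215, with a log2 fold change of 0.68 ± 0.31 (edgeR adjusted p = 0.230), and ssc-miR-122, at -0.79 ± 0.30 (adjusted p = 0.158). At Mid ssc-miR-215 stood at 1.07 ± 0.37 (edgeR adjusted p = 0.808), which averaged 10d and 14d. With only the Early and pre-TBI libraries in the fit, ssc-miR-122 was called at Early (edgeR adjusted p = 0.0322), where 3 of the 411 were called higher and 35 lower.

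The summed level of the 6 rows differed from pre-TBI by 0.24 on the log2 CPM scale at Early and by 0.41 at Mid. The difference was -0.27 at Late, and 1.159 in the LR libraries. Exact permutation tests within minipigs gave adjusted p of 0.389, 0.389, 0.222 and 0.222, and at Late and LR the raw p of 0.111 was the smallest that 9 arrangements allow. At LR both animals had a larger share of their counts in the 6 rows, 1.15% and 1.65%, than any pre-TBI library, at 0.522% to 0.863%. The rows did not rise as a set. ssc-miR-192 alone held 71.8% and 63.9% of the counts of the 6 rows at LR, against 44.7% to 56.7% before TBI. ssc-miR-122 lay below all pre-TBI libraries there.

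Other miRNAs of the same tissues gave few calls. Of 10 other rows on a liver list (both arms of miR-148a, miR-193a, miR-365, miR-455 and miR-885), 0 passed edgeR's adjusted p at any phase or time point. At Early 2 of the 10 passed the unadjusted threshold, where 18.7% of all ssc-miRNAs did, and both were lower. They were ssc-miR-455-3p at -1.45 ± 0.44 (edgeR adjusted p = 0.0838) and ssc-miR-148a-5p at -1.42 ± 0.49 (0.115). The list median was -0.06 against 0.02 over all ssc-miRNAs. At 20d, 1 of the 10 passed unadjusted, where 7.06% of all did. It was ssc-miR-148a-3p at -1.07 ± 0.48 (edgeR adjusted p = 0.550), with a list median of -0.15 against -0.01.

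Of 5 rows on a gut epithelium list (miR-31, miR-196a, miR-429 and both arms of miR-196b), 0 passed the adjusted p. The unadjusted threshold was passed by ssc-miR-31 at 14d (0.89 ± 0.38, edgeR adjusted p = 0.534), where 9.0% of all ssc-miRNAs passed it. It was also passed by ssc-miR-196b-3p at 17d (-0.94 ± 0.41, edgeR adjusted p = 0.177), where 23.8% did. The list medians were -0.12 at 14d and 0.08 at 20d, against -0.18 and -0.01 over all. At 17d, when ssc-miR-192 was lowest, the median was -0.50 for the gut epithelium list and -0.31 for the liver list, against 0.08 over all. Of 7 rows known as p53-induced, 1 was called, at 17d, where 4.87% of all ssc-miRNAs were. This row, ssc-miR-34a, a direct p53 target, rose by 1.68 ± 0.46 (edgeR adjusted p = 0.0379), with 21 and 19 counts. Its 17d level was 997 CPM in minipig 1, in a library of 29159 counts, and 298 CPM in minipig 2, inside the pre-TBI range of 129 to 393 CPM. At 20d, 1 of the 7 passed unadjusted, where 7.06% of all did. It was ssc-miR-143-3p at 1.21 ± 0.41 (edgeR adjusted p = 0.443), and the list median was 0.39 against -0.01 over all. These lists were drawn up with earlier results of the data known.

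The ssc-miRNAs with the course most like ssc-miR-192 over the 24 libraries were ssc-miR-126-5p (r = 0.742), ssc-miR-181d-3p (0.713), ssc-miR-7142-5p (0.671), ssc-miR-151-5p (0.654) and ssc-miR-10b (0.625). For ssc-miR-215 they were ssc-miR-126-5p (0.604), ssc-miR-151-5p (0.599), ssc-miR-7142-3p (0.591), ssc-miR-31 (0.579) and ssc-miR-181d-3p (0.565). 3 of the 5 names are thus on both lists. The most similar to ssc-miR-122 were ssc-miR-19a (0.715), ssc-miR-499-5p (0.702), ssc-miR-181d-5p (0.700), ssc-miR-1277 (0.691) and ssc-miR-23b (0.691), none of them shared with the other 2. The rows closest to the ssc-miR-194 rows were ssc-miR-505 for ssc-miR-194a (0.848), ssc-miR-371-5p for ssc-miR-194b-5p (0.771) and ssc-miR-450c-3p for ssc-miR-194b-3p (0.747). Some of these neighbours had few counts per library: 0 to 52 for ssc-miR-1277, 2 to 97 for ssc-miR-19a and 4 to 73 for ssc-miR-450c-3p. ssc-miR-371-5p had 3 to 619 and ssc-miR-126-5p 6 to 1118. The part of shallow libraries in these correlations was not tested.

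ssc-miR-126-5p, known from endothelium and platelets, measured 344 to 960 CPM before TBI. It gave 2666 and 1844 CPM at 3d, 1028 and 641 at 14d, 285 and 393 at 17d, and 3272 and 1550 at 20d in minipigs 1 and 2. It was called at 3d (1.66 ± 0.37, edgeR adjusted p = 0.0282) and 20d (1.75 ± 0.37, 0.0302), so it shared 2 of the 3 high points of ssc-miR-192, and overlapped the baseline at 14d. At 17d its values rest on 6 and 25 counts, and that of minipig 2 lay inside its baseline range. It was also low at 10d, with 380 and 210 CPM from 16 and 9 counts, where ssc-miR-192 overlapped the baseline.

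Markers of blood cells moved at some of the same times. The summed level of the 3 platelet rows (ssc-miR-126-3p, ssc-miR-126-5p and ssc-miR-191) was 10564 to 20675 CPM before TBI, 40487 and 74920 CPM at 3d, and 2090 and 5842 CPM at 17d. At 14d it was 6914 and 12323 CPM and at 20d 5834 and 11359 CPM, not above the baseline range at either time. Most of this sum is ssc-miR-191, and the members parted at 20d: ssc-miR-191 had a log2 fold change of -1.28 ± 0.53 (edgeR adjusted p = 0.550) and ssc-miR-126-3p one of 0.27 ± 0.32 (adjusted p = 0.723), while ssc-miR-126-5p was called higher. The part of platelet RNA in the 3d and 20d results was not tested. The 6 leukocyte rows summed to 1920 to 3239 CPM before TBI, 3674 and 5706 at 3d, 1510 and 1713 at 14d, and 1665 and 2007 at 20d. The higher sum at 3d was not shared across the list. Only 1 of the 6, ssc-miR-342, was called higher there (edgeR adjusted p = 0.00947). The list median log2 fold change at 3d was 0.04, against -0.07 over all ssc-miRNAs.

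The 3 erythrocyte rows (ssc-miR-451, ssc-miR-144 and ssc-miR-486) summed to 8977 to 88288 CPM before TBI and to 32138 and 57337 at 3d, 11315 and 16819 at 14d and 10007 and 20063 at 20d, within the baseline range each time. The 5 muscle rows summed to between 1260 and 2309 CPM throughout. Within this sum, at Early, ssc-miR-1 had a log2 fold change of -1.41 ± 0.44 (edgeR adjusted p = 0.0905) and ssc-miR-133a-3p one of 0.46 ± 0.18 (edgeR adjusted p = 0.180). The endocrine row ssc-miR-7 ran from 188 to 1280 CPM, with 517 and 1280 at 20d against 442 to 643 before TBI. No marker row was at 0 in every library.

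**Figure D5:**
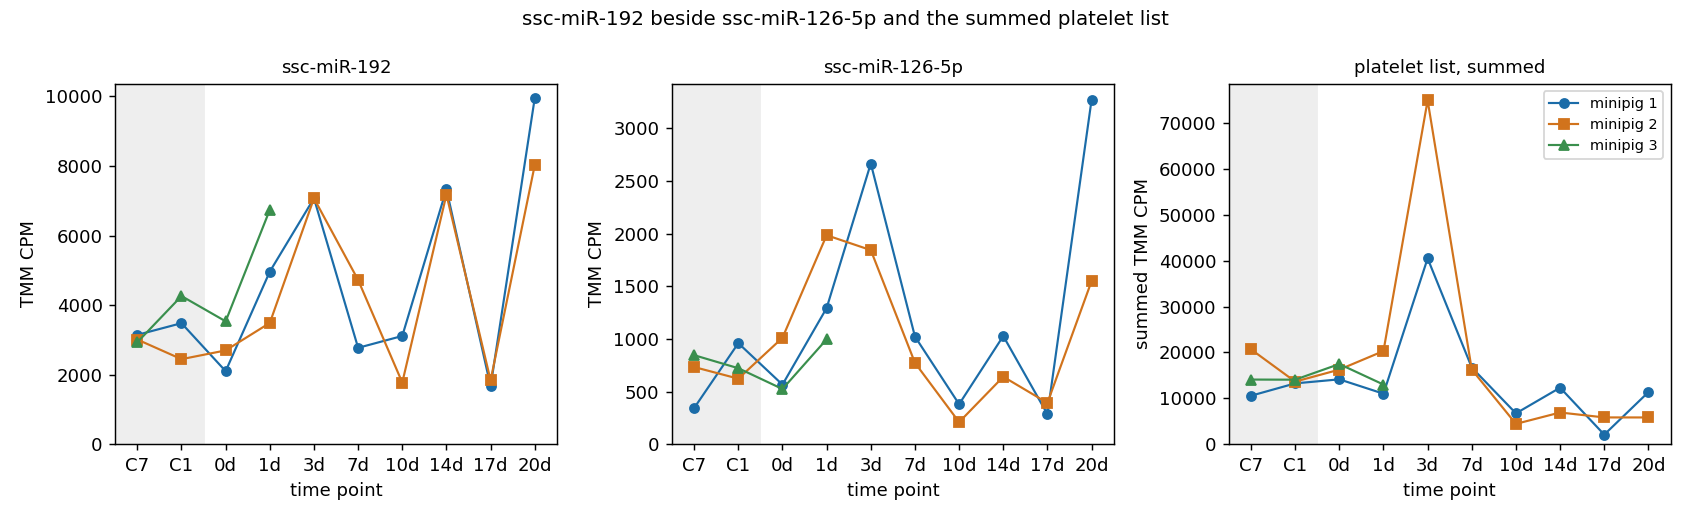
TMM-scaled CPM (vertical axes, linear, each panel its own range) of ssc-miR-192, ssc-miR-126-5p and the summed platelet list at the 10 time points (horizontal axis, pre-TBI shaded), 1 line per minipig. All 3 are high at 3d, while at 20d ssc-miR-192 and ssc-miR-126-5p are high and the platelet sum is 5834 to 11359 CPM, against 10564 to 20675 before TBI.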

How the data were processed

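Small RNA of plasma from 3 minipigs at 10 time points was sequenced by the authors from TruSeq libraries on a NextSeq. The study's methods state trimming with Cutadapt, alignment with Bowtie to the pig genome and to miRBase, and quantification with miRDeep2. The submitters' processing notes name Bowtie2 2.2.3.0. The authors deposited raw counts per ssc-miRNA and library, whole numbers without normalization, for 411 ssc-miRNAs in 30 libraries, and all 30 columns were matched to samples. Animal and time point came from the sample labels, and the phases from the study.

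Libraries under 1000 counts were left out. The 24 others were fitted with edgeR 4.0.16 (R 4.3.3): TMM scaling, a CPM above 0.5 in at least 3 libraries (all 411 passed), a prior count of 0.125 for fold changes and 2 for log2 CPM, 5 phase groups or 9 time groups in 1 quasi-likelihood fit without a term for the animal, and Benjamini-Hochberg adjustment over the 411. For the SE, the square root of the F statistic was divided into the absolute log2 change. Ratios had 0.5 added to each count and were tested, like the sum, by exact permutation within minipigs. The scripts were tested on simulated data. Alternatives included DESeq2 1.42.0. Python 3.11.15 with scipy 1.17.1 gave the permutations and matplotlib 3.10.9 the figures.

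The 6 miRNAs, the lists and the tests were chosen with earlier results of these data known. Named ssc-miRNAs are the 6 rows, for each row the 5 ssc-miRNAs with the highest Pearson correlation of log2 CPM (for the ssc-miR-194 rows the closest is given), and the liver, gut epithelium, p53-induced and blood, muscle and endocrine marker lists. Libraries are paired by animal: their deviations from the phase means correlated at 0.169 over 78 pairs of the same minipig and at -0.102 over 130 pairs of different minipigs. No libraries were duplicates (smallest chi-square per degree of freedom 21.8 over 68 pairs of a phase). The common biological coefficient of variation was 0.496. The phases were taken by the study from the same libraries, so they are not independent of the values tested.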

Additional observations from a re-analysis of the deposited data

Results flagged for a closer look

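The step between neighbouring late time points was itself tested, in comparisons chosen after the levels had been seen. 17d minus 14d was -2.05 for ssc-miR-192 and -1.67 for ssc-miR-215 on the log2 scale (edgeR adjusted p = 0.0133 and 0.0262), lower in 2 of 2 animals for both. For ssc-miR-192, 20d minus 17d was 2.36 (edgeR adjusted p = 0.00926), higher in 2 of 2 animals.

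In 39 groups of 4 to 10 libraries searched for a single library far from the others, 2 were found, and chance gives about 1 in 20 groups. Both concern ssc-miR-194b-5p. Among the pre-TBI libraries the C7 library of minipig 1 was lowest, at 7.67 log2 CPM from 4 counts. Among the Early libraries the 3d library of minipig 2 was highest, at 8.98 log2 CPM from 131 counts.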

How the results depend on the processing

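Counts below are of the 6 miRNAs called, and fold changes are log2. With library size only, calls were 1 at Early, 2 at Mid and 2 at 0d (unadjusted), and 0 at 3d, 0 at 20d and 2 for 20d minus 17d (adjusted). Over all 411 that setting called 3 higher and 69 lower at Early, 2 and 9 at Mid, and 1 and 35 at 0d (unadjusted). Its adjusted calls over all 411 were 1 higher at 3d and 0 at 20d. With C7 only as the baseline calls were 0 at Early (unadjusted) and 0 at 3d, 14d and 20d (adjusted). Over all 411 they were 4 higher and 65 lower at Early, and 0 at 3d, 14d and 20d. With C1 only calls were 1 at Early, 0 at Mid and 1 at 1d (unadjusted) and 0 at 3d, 14d and 20d (adjusted). Over all 411 they were 8 higher and 39 lower at Early, 11 and 5 at Mid, and 5 and 26 at 1d (unadjusted). Adjusted calls over all 411 were 2 higher at 3d and 0 at 14d and 20d. With libraries of just the 2 groups under comparison calls were 1 at Early and 0 at 3d, 14d and 20d (adjusted), and 0 at 17d (unadjusted). Over all 411 they were 3 higher and 35 lower at Early, 0 at 3d, 14d and 20d, and 27 and 12 at 17d. The DESeq2 Wald test gave 2 at 0d (unadjusted) and 2 at 3d and 14d, 1 at 1d and 17d, and 2 for 20d minus 17d (adjusted). Over all 411 DESeq2 called 31 higher and 40 lower at 0d (unadjusted). Its adjusted calls over all 411 were 14 higher and 7 lower at 3d, 2 and 0 at 14d, 7 and 18 at 1d, and 23 and 14 at 17d. With the minipig as a replicate block calls were 2 at Mid and 0 at 17d (unadjusted), and 2 at 3d and 2 for 20d minus 17d (adjusted), and the block changed no other count of calls by over 1.5 times. Over all 411 the block gave 12 higher and 16 lower at Mid and 57 and 27 at 17d (unadjusted), and 6 and 0 at 3d (adjusted). Counts thinned to the smallest library gave 0 at 14d and 20d and 1 for 17d minus 14d. Further fits left out 1 minipig, or the C7 library of minipig 1 or the 17d library of minipig 2. Unadjusted calls then ranged from 1 to 3 at Early, 0 to 1 at Mid, 1 to 2 at 0d and 1 to 3 at 1d. Over all 411 these fits called 3 to 35 higher and 27 to 66 lower at Early, and 5 to 24 and 7 to 22 at Mid. They called 1 to 46 higher and 2 to 45 lower at 0d, and 7 to 28 and 5 to 51 at 1d. At Late, at LR and from 3d on, some of these fits left 1 library in a group, so calls there are not counted. Without minipig 3, or without the C7 library of minipig 1, 0 of all 411 passed the adjusted p at 14d and 20d. With 1 minipig or 1 of those 2 libraries left out, the direction also turned for ssc-miR-192 at 7d (-0.31 to 0.47). It turned too for ssc-miR-215 at 10d (-0.44 to 0.58) and 17d (-0.35 to 0.14). So it did for ssc-miR-122 at 10d (-1.51 to 0.44) and 17d (-1.55 to 0.91). The log2 ratio of ssc-miR-192 to ssc-miR-215 turned at LR (-0.26 to 0.30). ssc-miR-215 turned to -0.042 at 10d with library size only, and at 17d to 0.024 with the replicate block and 0.091 with thinned counts. ssc-miR-122 at 17d turned to -0.037 with DESeq2 size factors, -0.32 with library size only, -0.078 with DESeq2, -0.12 with the replicate block, -0.044 with only the 2 groups, -0.032 with C7 only and -0.094 with thinned counts. The sum at Early turned to -0.021 as a mean of the 6 log2 CPM. The cause of these shifts was not tested.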
